A study of Mus musculus with 6 samples.

Results

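The genes described here are the matrix metalloproteinases (MMP), the ADAMTS proteases (a disintegrin and metalloproteinase with thrombospondin motifs) and 2 of their inhibitors, Timp2 and Timp4, in the ischemic mouse retina. Members were chosen by symbol: every gene named Mmp or Adamts followed by a number, together with Timp2 and Timp4, that had a total of at least 10 counts over the 6 libraries. Of 43 symbols matched, 37 passed this minimum, which is 37 of the 20021 genes tested and of 32285 genes in the table. They were 16 of 22 MMP genes, all 19 ADAMTS genes and both inhibitors. The 6 genes left out were Mmp1b and Mmp20 with 1 count each, Mmp3 with 2 counts, and Mmp7, Mmp8 and Mmp27 with 0, so the stromelysin Mmp3 was too low to compare at this depth.

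Retinal RNA came from wild type C57BL/6J mice with oxygen-induced retinopathy (OIR), in which pups breathe 75% O2 with their mothers for 5 days from postnatal day 8 (PN8), lose the capillaries of the central retina, and regrow vessels in room air from PN13. Both groups went through this hyperoxia, so neither is a healthy retina. After the hyperoxia, from PN13 until the retinas were taken, OIR-CIH pups underwent chronic intermittent hypoxia (CIH). It ran as 266 daily cycles of 135 s over 10 h in which O2 dropped from 20.95% to 5%. OIR-Norm pups received the same gas flow with O2 left at room level, and each group gave 3 libraries of whole retina at PN18, numbered 1 to 3 below. The labels do not say whether the 3 eyes of a group came from separate litters, so the p-values measure the spread between these libraries.

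MMPs are zinc proteases that cut collagens, laminins, elastin and signalling proteins, and most are made as inactive proenzymes that another protease has to open. TIMPs bind the active site, and a complex of membrane-bound MMP14 with TIMP2 also presents proMMP2 for activation at the cell surface. ADAMTS proteases cut proteoglycans such as versican, trim procollagens or process von Willebrand factor, and both families are known in the retina for remodelling the vessel basement membrane and the matrix that new vessels grow through.

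The total count was between 26289905 and 38010151 per library, so that 3 counts corresponded to between 0.0794 and 0.118 CPM (counts scaled to one common library total, after adjustment by the trimmed mean of M-values, TMM). Rod, Müller glia and inner neuron markers were present in each library, with summed rod markers between 44342 and 58791 CPM. OIR-Norm 2 stood apart on the first principal component, at 28.1 against -15.8 to 3.51 for the other libraries. It also held the most lens marker RNA, 371 CPM against 11.5 to 57.3, and the most pericyte marker RNA, 224 CPM against 83.7 to 147. Values without this library are given beside the results that it moved most.

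Among the 37 members, none was called different between OIR-CIH and OIR-Norm. A call required an adjusted p under 0.05 from the edgeR quasi-likelihood test, with Benjamini-Hochberg adjustment over all genes tested, and a log2 fold change beyond 0.5, which 0.315% of all genes met. An unadjusted p under 0.05 was found for 8 members (21.6%), against 13.2% of all genes tested. Of these, 7 were lower in OIR-CIH, where 7.01% of all genes were, and 1 was higher, where 6.2% were. Mmp12 was the 1 member called by DESeq2, which called 0.674% of all genes, and by limma, which called 0.33%. The 3 OIR-CIH values lay entirely on one side of the 3 OIR-Norm values for 10 members (27.0%), against 18.4% of all genes. In 9 of the 10 the OIR-CIH values were below, as in 9.26% of all genes, and in 1 above, as in 9.12%. The fitted value was lower in OIR-CIH for 24 members and higher for 13, 64.9% lower against 50.5% of all genes. The median log2 fold change was -0.15 over the members and -0.0028 over all genes.

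**Figure D1:**
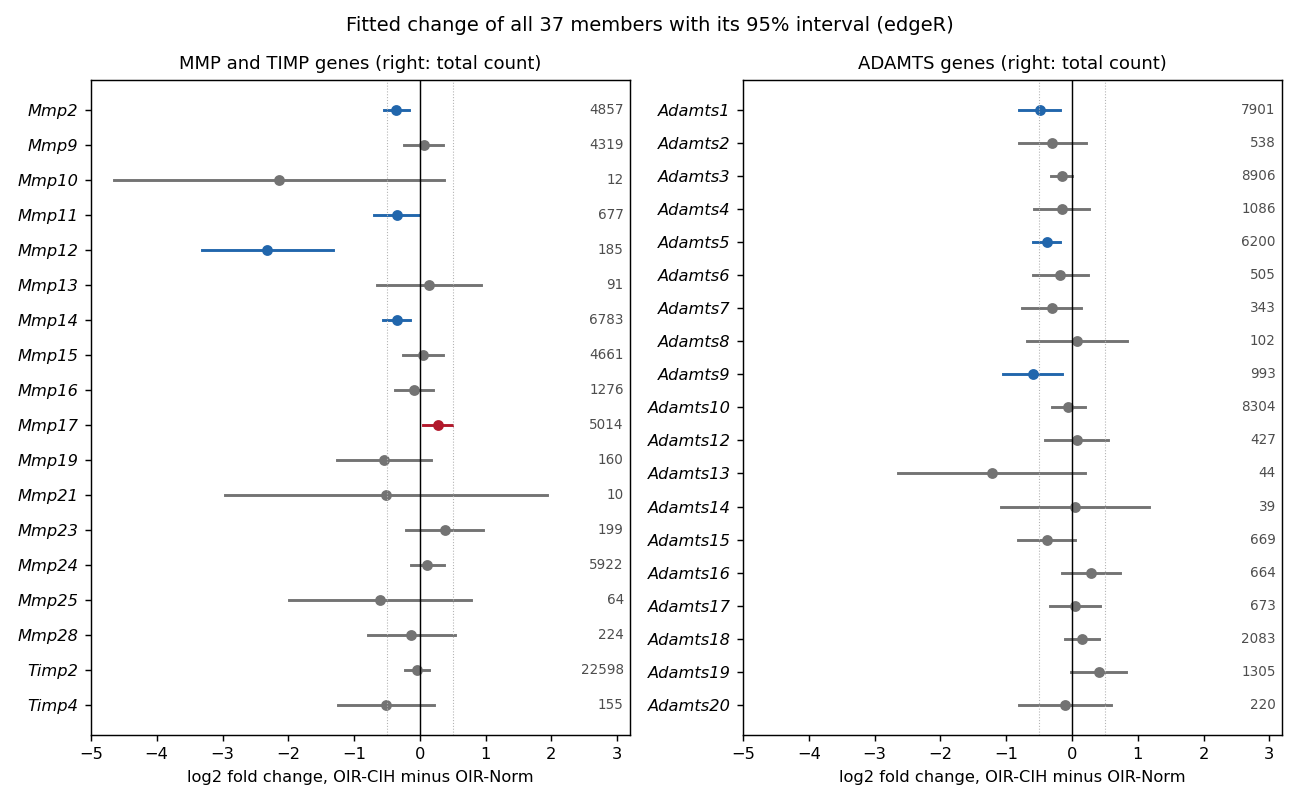
Fitted log2 fold change (x axis, OIR-CIH minus OIR-Norm, edgeR) of the 37 members with its 95% interval, MMP and TIMP genes on the left and ADAMTS genes on the right, with the total count over 6 libraries at the edge. Members with an unadjusted p under 0.05 are blue where lower and red where higher, and dotted lines mark the minimum fold of 0.5; of the coloured points only Mmp12 at -2.32 and Adamts9 at -0.60 lie beyond it.

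The lean toward lower values rested in part on OIR-Norm 2. This library was the highest of the 6 for 14 members (37.8%, against 21.0% of all genes). Without it 18 of the 35 members that still had 10 counts were fitted lower and 17 higher, and their median was -0.01. Among the 24 members with at least 300 counts, 7 had an unadjusted p under 0.05 (29.2%, against 15.6% of all genes of that depth) and 8 did not overlap between groups (33.3%, against 20.4%).

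**Figure D2:**
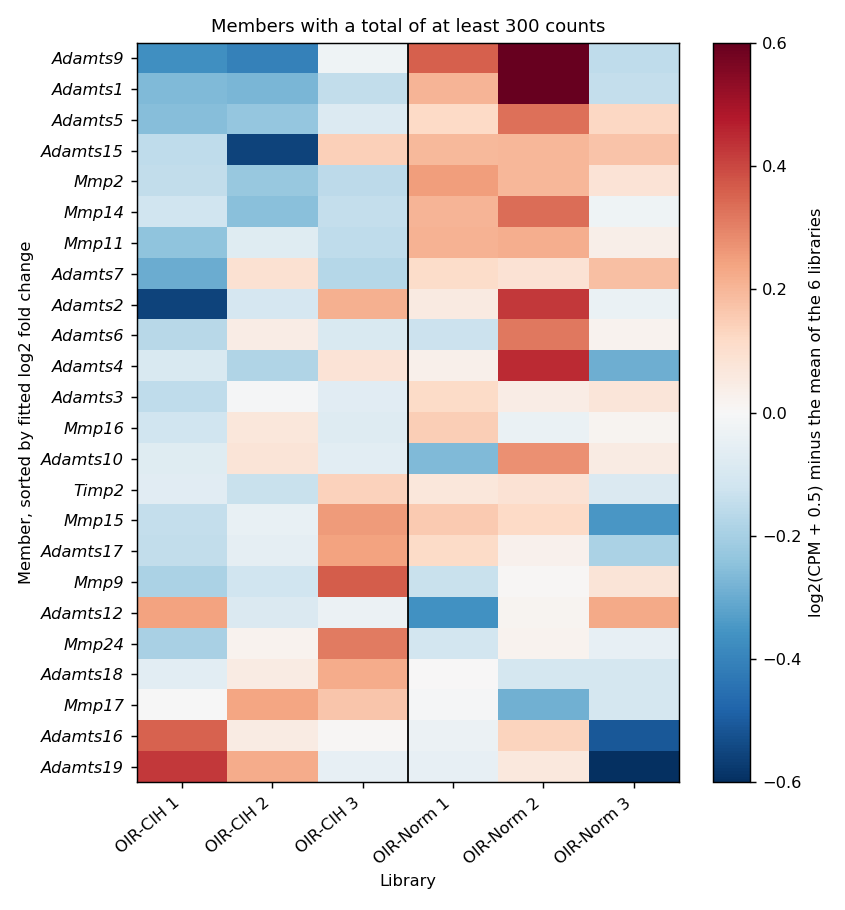
Each library's log2(CPM + 0.5) minus the mean of the 6 libraries (colour, which ends at 0.6 in either direction) for the 24 members with a total of at least 300 counts, sorted by fitted fold change, with OIR-CIH left and OIR-Norm right of the line. The upper rows are mostly blue in OIR-CIH and red in OIR-Norm, most strongly in OIR-Norm 2 for Adamts9 and Adamts1. Most lower rows overlap between groups, but Mmp17, near the bottom, is higher in each OIR-CIH library than in any OIR-Norm library.

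Mmp12 (ENSMUSG00000049723, GRCm38 chromosome 9, 7344381 to 7369499, plus strand), the macrophage elastase, had the largest fitted difference of the members. It was read 17, 6 and 7 times in the OIR-CIH libraries and 67, 27 and 61 times in the OIR-Norm libraries. These are 0.667, 0.208 and 0.185 CPM against 2.17, 0.947 and 1.92 CPM. Each OIR-CIH library lay below each OIR-Norm library, with OIR-CIH 1 the highest of its group and OIR-Norm 2 the lowest of its own. The means were 0.353 ± 0.272 CPM (SD, n = 3) and 1.68 ± 0.647 CPM (SD, n = 3).

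The fitted log2 fold change of Mmp12 was -2.32 (standard error 0.46, 95% interval -3.31 to -1.33), with an edgeR p of 0.000238 that adjusted to 0.0567 and ranked 84 among all genes tested. The adjusted p therefore missed the threshold by a small margin, and other settings placed it on the other side. DESeq2 gave 0.000654 (log2 fold change -2.30), limma on log2(CPM + 0.5) gave 0.0494 (-1.35), and edgeR on every gene with at least 1 count gave 0.000431 (-2.32). Testing at least 1 count called 0.872% of genes, and a block on the replicate number, which gave 0.0194 (-2.35), called 0.42%. Leaving out 1 library gave adjusted p between 0.0274, without OIR-Norm 2 (-2.60), and 0.204, without OIR-CIH 3 (-1.97). The threshold was also passed without OIR-CIH 1 (adjusted p = 0.0428 by edgeR, -3.09). The direction was the same in each of these fits. Mmp12 stands in the list the study drew from these same libraries, which is therefore not independent evidence.

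The counts set the limit for this gene. Summed over libraries there were 30 Mmp12 reads in OIR-CIH and 155 in OIR-Norm, a CPM ratio of 5.22 with an exact 95% interval of 3.51 to 8.00 for counting error only. Libraries of 1 group differed by more than counting allows, with a variance over that of counting of 6.32 in OIR-CIH and 7.23 in OIR-Norm. The counting intervals of the nearest libraries, 0.389 to 1.07 CPM in OIR-CIH 1 and 0.624 to 1.38 CPM in OIR-Norm 2, overlapped. By exact permutation of the 6 CPM values, two-sided, p was 0.1, the smallest that 3 against 3 allow.

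Macrophage marker RNA was also lower in OIR-CIH. The summed level of 14 microglia and macrophage markers was 118 to 132 CPM in OIR-CIH and 148 to 169 CPM in OIR-Norm, with 13 of the 14 fitted lower and none at 0. For 7 markers of monocyte-derived macrophages it was 10.4 to 12.7 against 16.0 to 25.4 CPM. Of the 6 of them that were tested, 5 were fitted lower and 1 higher. One of the 7, the monocyte chemokine receptor Ccr2, had 0, 0 and 6 counts against 4, 13 and 8. By flow cytometry, the study reported no significant entry of monocytes or other white blood cells. With the same method it reported significantly fewer microglia in OIR-CIH than in OIR-Norm at PN18, the day of these libraries. In whole-retina RNA alone, fewer cells of a type and less RNA per cell cannot be told apart. Per 100 CPM of the microglia and macrophage markers, Mmp12 was 0.551, 0.177 and 0.141 CPM in OIR-CIH and 1.29, 0.564 and 1.29 CPM in OIR-Norm. These values were still separate between groups, although OIR-CIH 1 and OIR-Norm 2 nearly met. Per 100 CPM of the monocyte-derived markers they were 6.42, 1.88 and 1.46 against 13.6, 3.72 and 9.47, and the groups overlapped. The part of these cells in the Mmp12 difference was not tested beyond these ratios.

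**Figure D3:**
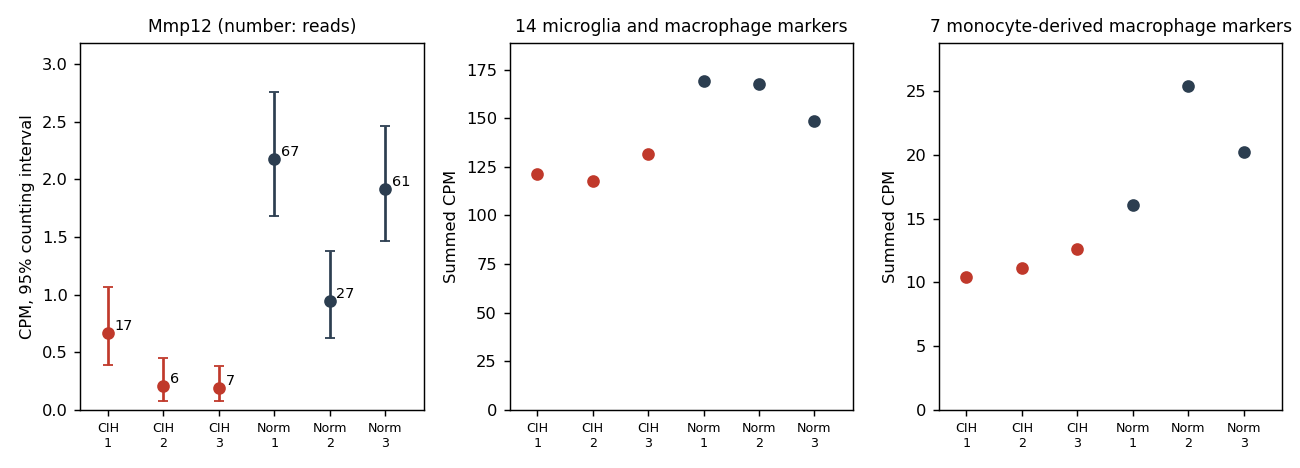
Mmp12 CPM per library with its 95% counting interval and the number of reads (left), and the summed CPM of 14 microglia and macrophage markers (middle) and 7 monocyte-derived macrophage markers (right), with OIR-CIH in red and OIR-Norm in blue. Mmp12 in OIR-Norm 2, at 27 reads, lies nearest to the OIR-CIH libraries, whereas the marker sums of that library are not low.

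Mmp12 lies in a cluster of 9 MMP genes of the table on chromosome 9 (7272514 to 7699585), of which only Mmp10, Mmp12 and Mmp13 passed the count minimum. Mmp13, a collagenase, had 13, 13 and 22 counts in OIR-CIH and 12, 12 and 19 in OIR-Norm, with a log2 fold change of 0.14 (95% interval -0.66 to 0.93). Mmp10, stromelysin 2, had 1, 1 and 0 counts against 1, 7 and 2. Mmp13 thus overlapped between groups, and Mmp10 held too few reads to compare. The promoters of these neighbours are shown because they share the AP-1 motif TGAGTCA or TGACTCA, a sequence known from inducible MMP genes. It was found on either strand in 3 of 25 RefSeq promoter windows of members (12%), those of these 3 genes, against 5.2% of all 32851 windows of 300 bases. RefSeq windows were found for 23 of the 37 members. The stretch from 100 bases before to 20 bases from the annotated start on is given 5′ to 3′ (GRCm38.p6), with AP-1 and TATAAA matches in capitals, for Mmp10 (chr9:7502242-7502361, plus strand), for the downstream of 2 Mmp12 starts (chr9:7347274-7347393, plus strand) and for Mmp13 (chr9:7272414-7272533, plus strand).
Mmp10: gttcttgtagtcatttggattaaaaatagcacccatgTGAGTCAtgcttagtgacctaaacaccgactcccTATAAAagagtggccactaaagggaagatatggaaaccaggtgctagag
Mmp12: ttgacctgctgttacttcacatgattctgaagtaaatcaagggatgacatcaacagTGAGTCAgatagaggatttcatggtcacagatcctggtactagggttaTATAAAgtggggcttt
Mmp13: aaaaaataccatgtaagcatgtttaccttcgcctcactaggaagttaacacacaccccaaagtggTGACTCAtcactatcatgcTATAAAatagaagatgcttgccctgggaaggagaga
The first base of the AP-1 match lay 63, 44 and 35 bases before the start in Mmp10, Mmp12 and Mmp13. That of the TATAAA match lay 29 and 16 bases before the start in Mmp10 and Mmp13. In Mmp12 it was base 5 counted from the start on, so it lay past the start. These distances hold for the annotated starts only, and the starts used in these retinas were not tested. The window of the upstream Mmp12 start held no such match, and a match is a run of letters, not a measured binding site.

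The gelatinase Mmp2 and its activator Mmp14 were both separate between groups at moderate levels. Mmp2 (ENSMUSG00000031740, chromosome 8), which degrades gelatin and type IV collagen, was 23.7, 22.4 and 23.6 CPM in OIR-CIH and 31.4, 30.3 and 27.8 CPM in OIR-Norm. The 2 groups did not overlap, and the OIR-CIH libraries had an SD of 0.720 CPM around a mean of 23.2 CPM (n = 3). The log2 fold change was -0.36 (standard error 0.09, edgeR adjusted p = 0.142). Mmp14 (ENSMUSG00000000957, chromosome 14), the membrane-type MMP that opens proMMP2, was 33.8, 30.8 and 33.2 CPM in OIR-CIH and 42.5, 46.4 and 36.1 CPM in OIR-Norm. Its groups did not overlap either, with OIR-Norm 3 closest to OIR-CIH, and its log2 fold change was -0.35 (standard error 0.10, edgeR adjusted p = 0.192). DESeq2 gave adjusted p of 0.0344 for Mmp2 and 0.0672 for Mmp14, each below the minimum fold.

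Mmp9 (ENSMUSG00000017737), the other gelatinase, was 20.1, 21.1 and 29.7 CPM in OIR-CIH and 20.9, 23.1 and 24.3 CPM in OIR-Norm. OIR-CIH 3 was the highest and OIR-CIH 1 the lowest of all libraries, and the log2 fold change of 0.06 had a 95% interval of -0.24 to 0.36. The 2 gelatinases are made by different cells in many tissues, Mmp9 often by leukocytes. The neutrophil markers summed to at most 1.05 CPM in any library, with 6 of the 8 at 0 in at least 1 library and 1 at 0 throughout. Microglia and macrophage markers, of other leukocytes, summed to 118 to 169 CPM. Which cells made Mmp9 here was not tested.

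**Figure D4:**
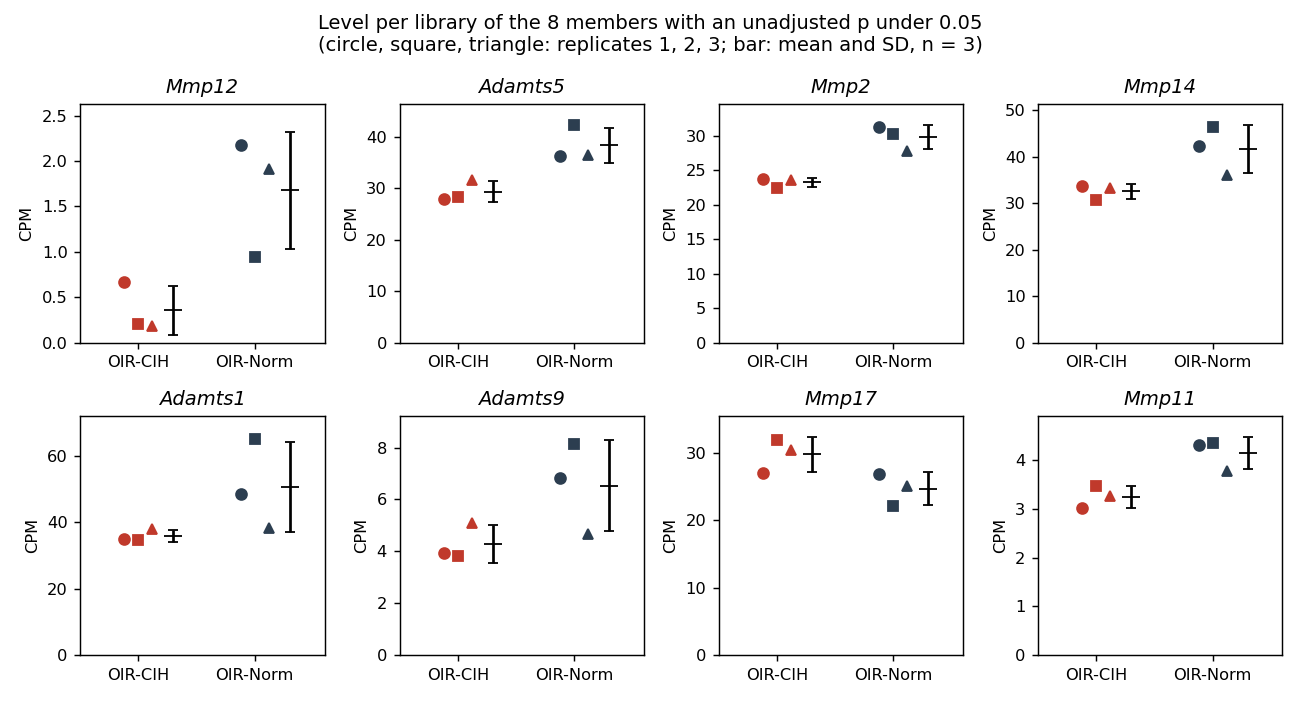
CPM per library of the 8 members with an unadjusted p under 0.05 (replicates 1, 2 and 3 as circle, square and triangle, with the mean and SD of 3 libraries beside them), OIR-CIH in red and OIR-Norm in blue. All but Mmp17 are lower in OIR-CIH, and the groups overlap only for Adamts9, where OIR-CIH 3 at 5.11 CPM is above OIR-Norm 3 at 4.65 CPM.

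Timp2 (ENSMUSG00000017466, chromosome 11), the inhibitor that also bridges MMP14 and proMMP2, was 117, 112 and 135 CPM in OIR-CIH and 128, 130 and 115 CPM in OIR-Norm. The groups overlapped, and the log2 fold change of -0.04 had a 95% interval of -0.23 to 0.14 (edgeR adjusted p = 0.875). Within libraries, the log2 ratio of Mmp2 to Timp2 in CPM was -2.30, -2.32 and -2.51 in OIR-CIH and -2.03, -2.10 and -2.05 in OIR-Norm, a difference of -0.31. The ratio of Mmp14 to Timp2 differed by -0.30 and that of Mmp9 to Timp2 by 0.08. By exact two-sided permutation p was 0.1 for the first 2 ratios, the smallest possible, and 0.6 for Mmp9, which adjusted over the 3 ratios to 0.15, 0.15 and 0.6. Timp4 was close to the lower end of detection, with 13, 14 and 38 counts against 32, 23 and 35. Its log2 fold change of -0.52 had a 95% interval of -1.25 to 0.21.

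Among the other membrane-type MMPs, Mmp17 (ENSMUSG00000029436, chromosome 5) was the only member with an unadjusted p under 0.05 that was higher in OIR-CIH. It encodes a protease anchored to the membrane by a glycosylphosphatidylinositol tail, unlike the transmembrane MMP14. Mmp17 was 27.0, 31.9 and 30.4 CPM in OIR-CIH and 26.9, 22.1 and 25.1 CPM in OIR-Norm. The groups were separate by a small margin, as OIR-CIH 1 and OIR-Norm 1 almost coincided, and the log2 fold change was 0.27 (standard error 0.10, edgeR adjusted p = 0.304). Mmp15, Mmp16 and Mmp24, all transmembrane proteases of which Mmp24 is mainly neuronal, had log2 fold changes of 0.04, -0.09 and 0.11 with overlapping groups. Their 95% intervals lay within -0.38 to 0.36, so that the 6 membrane-type genes shared no direction. Exons of Mmp24 share 13.6% of their length with BC029722 on the other strand, and the strand setting of the counts is not given in the sources used here. Mmp25, the leukocyte member of the group, had 5, 6 and 15 counts against 11, 24 and 3.

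The remaining MMPs were weakly expressed. Mmp11, stromelysin 3, was 3.02, 3.47 and 3.26 CPM in OIR-CIH and 4.32, 4.35 and 3.77 CPM in OIR-Norm. The groups did not overlap, with a log2 fold change of -0.35 (edgeR adjusted p = 0.369), and 5.58% of its exon length is shared with Chchd10 on the other strand. Mmp19 was also separate, at 0.353, 0.901 and 0.82 against 1.07, 0.982 and 1.04 CPM, but 22.3% of its exon length is shared with Tmem198b on the other strand. Mmp23 and Mmp28 had log2 fold changes of 0.38 and -0.13 with overlapping groups, and Mmp21 had 3, 1 and 0 counts against 4, 1 and 1. Exons of Mmp28 share 12% of their length with 1700020L24Rik on the other strand.

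The proteoglycan-cleaving ADAMTS genes were lower in OIR-CIH for 6 of 7 members by fitted value, with a median log2 fold change of -0.38, and 3 of the 7 had an unadjusted p under 0.05. These are 85.7% lower against 50.5% of all genes and 42.9% against 13.2%, in a group of 7 formed after the values had been seen. Without OIR-Norm 2, 5 of the 7 were fitted lower with a median of -0.27, and the fitted values of Adamts4, Adamts20 and Adamts8 took the other sign, at 0.0740, 0.05 and -0.06. Adamts5 (ENSMUSG00000022894), a major aggrecanase, was 27.9, 28.3 and 31.6 CPM in OIR-CIH and 36.3, 42.2 and 36.4 CPM in OIR-Norm. The groups did not overlap, and the log2 fold change was -0.39 (standard error 0.09, edgeR adjusted p = 0.132). Adamts1 (ENSMUSG00000022893), which cleaves versican and is known to restrain vessel growth, was 35.0, 34.8 and 38.0 CPM against 48.6, 65.2 and 38.2 CPM. OIR-Norm 3 was level with OIR-CIH 3, and OIR-Norm 2 was the highest. The log2 fold change was -0.49 (standard error 0.15, edgeR adjusted p = 0.223). It was -0.27 without OIR-Norm 2 (adjusted p = 0.508 by edgeR) and passed the thresholds only without OIR-Norm 3 (-0.66, adjusted p = 0.0270). DESeq2 gave adjusted p of 0.0463 for Adamts1 and 0.0234 for Adamts5, each below the minimum fold.

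Adamts9, a versican-cleaving protease with a broad role in development, was 3.92, 3.81 and 5.11 CPM in OIR-CIH and 6.82, 8.14 and 4.65 CPM in OIR-Norm. The groups overlapped through OIR-CIH 3 and OIR-Norm 3, and Adamts9 differed by -0.60 on the log2 scale (standard error 0.20, edgeR adjusted p = 0.277). Without OIR-Norm 2 it was -0.41. Exons of Adamts9 share 9.18% of their length with A730049H05Rik on the other strand. Adamts15 was 3.14, 2.25 and 3.97 against 4.12, 4.14 and 4.05 CPM, which did not overlap (-0.38, edgeR adjusted p = 0.436). Adamts4, an inducible aggrecanase, was 5.45, 5.10 and 6.22 against 5.97, 8.14 and 4.68 CPM (-0.16), with the highest and the lowest library both in OIR-Norm. Adamts20 and Adamts8 had log2 fold changes of -0.11 and 0.08, and 10.6% of the exon length of Adamts8 is shared with Gm29724 on the other strand.

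Adamts1 and Adamts5 lie next to each other on the minus strand of chromosome 16, at 85793827 to 85803113 and 85856173 to 85901828 (GRCm38), 53059 bases apart. The Adamts1 promoter is shown because it was the only one of the 10 ADAMTS windows with a TATAAA match, in capitals and 32 bases before the start, a run found on either strand in 13.6% of all windows and in 5 of 25 windows of members. The stretch is chr16:85803094-85803213 on the minus strand of GRCm38.p6, 5′ to 3′.
Adamts1: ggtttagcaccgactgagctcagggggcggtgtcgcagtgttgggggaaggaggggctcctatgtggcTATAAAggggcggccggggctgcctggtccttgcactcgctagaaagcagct

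Markers of pericytes and smooth muscle were also fitted lower in OIR-CIH, all 8 of them, with none at 0. Their summed level was 83.7, 100 and 130 CPM in OIR-CIH and 147, 224 and 92.9 CPM in OIR-Norm. These sums overlapped between groups, with OIR-Norm 2 the highest and OIR-Norm 3 below OIR-CIH 2 and 3. Adamts5 in OIR-Norm 3, at 36.4 CPM, was nonetheless above each OIR-CIH library. Per 100 CPM of these markers, Adamts1 was 41.8, 34.8 and 29.4 CPM in OIR-CIH and 33.2, 29.1 and 41.1 CPM in OIR-Norm, and the groups overlapped. Adamts5 and Adamts9 overlapped on the same scale. Endothelial markers summed to 227 to 263 CPM against 226 to 301 CPM. Per 100 CPM of these, Adamts1 was 15.4, 15.1 and 14.5 against 19.7, 21.6 and 16.9, and Mmp14 was 14.9, 13.3 and 12.6 against 17.2, 15.4 and 15.9, both separate between groups. A single marker, the VEGF receptor Kdr, made up 58.0% to 76.4% of this sum, and its log2 fold change was -0.01, whereas 8 of the 10 markers were fitted lower with a median of -0.26. Per 100 CPM of the other 9 markers, a sum chosen after the data had been seen, both genes overlapped between groups, with Adamts1 at 62.1, 52.7 and 45.4 against 62.7, 51.5 and 71.3. Fibroblast markers were fitted lower as well, with sums of 67.4 to 111 against 109 to 160 CPM. Per 100 CPM of them, Mmp2 was 31.6, 33.2 and 21.2 CPM in OIR-CIH and 21.5, 19.0 and 25.6 CPM in OIR-Norm. On this scale the groups overlapped, and the mean was higher in OIR-CIH (28.7 against 22.0). Astrocyte markers were lower too, with sums of 104 to 114 against 171 to 216 CPM. This list held only 4 genes, with log2 fold changes from -1.15 to -0.11 and a median of -0.50. Of them 1 was called, where 0.315% of all genes were. Pigment epithelium markers summed to more in OIR-CIH, 282 to 420 against 175 to 288 CPM. Their groups overlapped, with 3 of the 6 fitted higher and 3 lower. All 7 rod markers were fitted higher in OIR-CIH. The part of these cells in the differences was not tested.

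The procollagen N-proteinases trim the amino end of fibrillar procollagens, and Adamts3 also processes the lymphatic growth factor VEGFC. Adamts3 was 43.5, 48.2 and 46.2 CPM in OIR-CIH and 52.5, 49.9 and 51.0 CPM in OIR-Norm. Its groups did not overlap, but the difference was small (-0.15, edgeR adjusted p = 0.390). Adamts2 (-0.30) and Adamts14, with 6, 5 and 9 against 6, 7 and 6 counts, overlapped between groups.

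Adamts10, which is linked to fibrillin microfibrils, was among the most abundant members and had 42.9, 47.7 and 43.1 CPM in OIR-CIH and 37.5, 54.7 and 46.7 CPM in OIR-Norm. OIR-Norm held both the highest and the lowest library, and the log2 fold change of -0.05 had a 95% interval of -0.31 to 0.20. The other 5 genes grouped with it, Adamts6, Adamts16, Adamts17, Adamts18 and Adamts19, had log2 fold changes of -0.18 to 0.41 with overlapping groups, 4 of them fitted higher in OIR-CIH. Adamts19 had the largest of these (0.41, edgeR adjusted p = 0.392). Adamts7 and Adamts12, which cleave cartilage oligomeric matrix protein, had log2 fold changes of -0.31 and 0.07. Adamts13, the protease that shortens von Willebrand factor, had 5, 5 and 3 counts in OIR-CIH and 3, 12 and 16 in OIR-Norm, with OIR-Norm 1 as low as OIR-CIH 3.

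Per kilobase of exon, Timp2 was the most abundant member, at 31.5 CPM per kilobase over the 6 libraries. Among the MMPs, Mmp2 (7.87), Mmp24 (6.82), Mmp9 (6.56) and Mmp14 (6.23) led, followed by Mmp15 (4.67) and Mmp17 (4.11). Between neighbours in this order the libraries overlapped, and the order depended on the group. In OIR-CIH, Mmp24 (7.07) was above Mmp2 (6.89), whereas in OIR-Norm Mmp2 (8.85) was above Mmp14 (6.99) and Mmp24 (6.56). Of the ADAMTS genes, Adamts3 (8.94), Adamts1 (8.16), Adamts10 (5.51) and Adamts5 (3.13) led, with Adamts3 (8.46) above Adamts1 (6.78) in OIR-CIH and Adamts1 (9.55) above Adamts3 (9.42) in OIR-Norm. Mmp12, at 0.140 CPM per kilobase over annotated exons of 7237 bases, ranked 13 of the 16 MMPs.

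**Figure D5:**
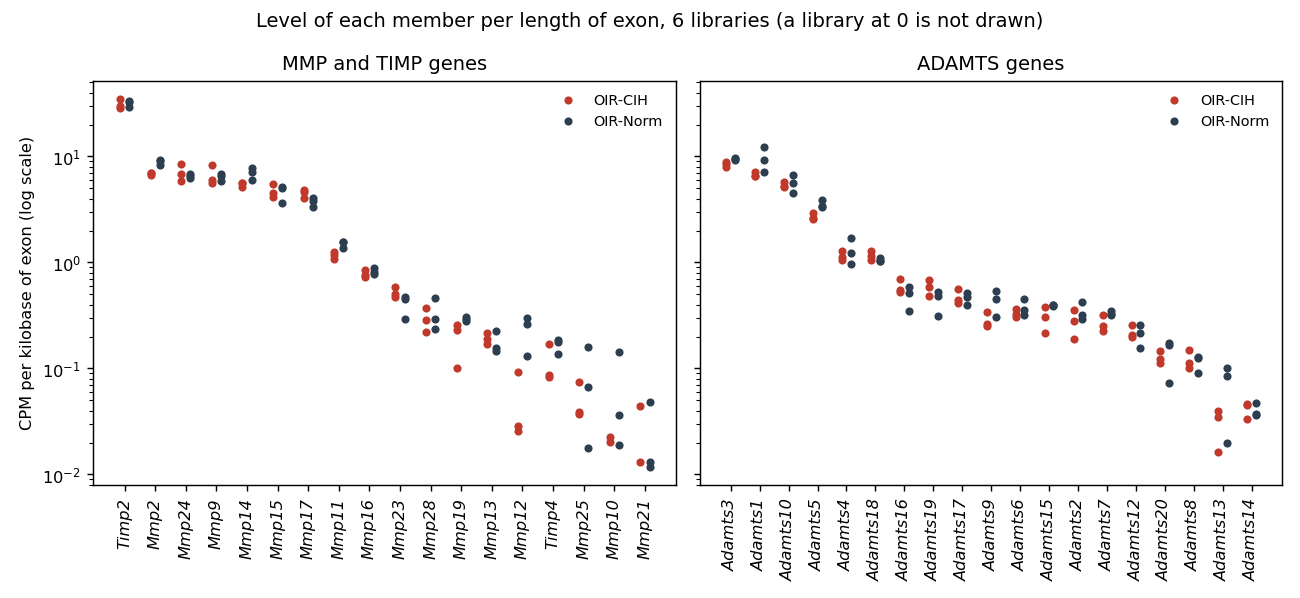
CPM per kilobase of annotated exon (log axis) of each member in the 3 OIR-CIH (red) and 3 OIR-Norm (blue) libraries, sorted by mean level within MMP and TIMP genes (left) and ADAMTS genes (right); a library at 0 is not drawn. Levels span from Timp2 at 31.5 on average to Mmp21 and Adamts14 at the lower end, and the red and blue points of Mmp12 stand farther apart than those of its neighbours.

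Of other genes around these proteases, the list of MMP inhibitors and regulators held 14 tested genes. Of these, 2 were called, where 0.315% of all genes were, and both were lower in OIR-CIH. Pcolce was 22.5, 16.7 and 18.6 CPM in OIR-CIH and 43.6, 41.7 and 40.9 CPM in OIR-Norm (log2 fold change -1.13, edgeR adjusted p = 0.000211). It speeds the removal of the carboxyl end of procollagen, and this known role is not an action on MMP or ADAMTS proteases. Timp1, an inducible inhibitor that pairs with MMP9, was 0.981, 0.901 and 0.979 CPM against 2.14, 3.79 and 2.29 CPM (-1.51, standard error 0.26, edgeR adjusted p = 0.0233). Each OIR-CIH library lay below each OIR-Norm library for both genes. Pcolce was called in each fit that left out 1 library, whereas Timp1 lost its call without any one of OIR-CIH 1, 2 or 3 or without OIR-Norm 2 (edgeR adjusted p = 0.0886 to 0.129). The inhibitors Timp3 and Reck had log2 fold changes of 0.08 and -0.01. The study lists both called genes from these same libraries, so the list is not independent evidence of its direction. A2m, a trap for many proteases, Tfpi2 and Lrp1 had log2 fold changes of -0.59, -1.85 and -0.23 and did not pass the threshold (edgeR adjusted p = 0.103, 0.264 and 0.370).

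The other lists held no called gene by edgeR. In the plasminogen list, whose protease opens several proMMPs, 0 of 9 tested genes were called. An unadjusted p under 0.05 was found for 2 of them (22.2%, against 13.2% of all genes), Plat (-0.36) and Plau (-1.14). These were -0.16 and -0.80 without OIR-Norm 2. Among 10 lecticans and link proteins, the matrix that ADAMTS proteases cut, only Vcan had an unadjusted p under 0.05 (10%, against 13.2%). It was 15.0, 19.8 and 22.5 CPM in OIR-CIH and 29.9, 39.3 and 26.3 CPM in OIR-Norm (-0.73, edgeR adjusted p = 0.0989). Vcan did not overlap between groups, and without OIR-Norm 2 it was -0.55. Of the 7 proteoglycan-cleaving ADAMTS genes, Adamts1, Adamts5 and Adamts15 were separate as well, while Adamts4, Adamts8, Adamts9 and Adamts20 overlapped. The list of 11 ADAM genes, not all of which are active sheddases, had 0 genes at an unadjusted p under 0.05. Of 7 ADAMTS-like genes 2 had one (28.6%, against 13.2%), Adamtsl3 (-0.98, and -0.62 without OIR-Norm 2) and Papln (-0.35). Of 14 basement membrane and collagen genes 0 were called, 13 (92.9%) were fitted lower against 50.5% of all genes, with a median of -0.51, and 7 (50%) had an unadjusted p under 0.05 against 13.2%, among them the laminin chain Lama5 (-0.51), Col1a2 (-0.58) and fibronectin, Fn1 (-0.55). Without OIR-Norm 2, chosen as a check after the data had been seen, 10 of the 14 were fitted lower with a median of -0.17. Fn1 was then -0.28, and the basement membrane genes Col4a1, Col4a2 and Nid1 went from -0.50, -0.35 and -0.57 to 0.05, 0.14 and 0.06. DESeq2, which called 0.674% of all genes, called 6 genes over all these lists. They were Pcolce, Timp1, A2m, Vcan, Lama5 and Col1a2, each lower in OIR-CIH. The study's own list holds several of these from the same libraries.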

How the data were processed

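Poly(A)-selected strand-specific libraries were made from 250 ng of retinal RNA from 3 eyes of each group, OIR-CIH and OIR-Norm, at PN18. The authors aligned reads with STAR 2.7.9a and deposited raw counts per gene, without normalization, for 6 libraries in 1 table. The submitters' processing notes name GRCm38, the methods name a later Ensembl annotation, and which strand column was kept is not given in the sources used here.

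Groups were taken from the sample labels. Symbols, exon lengths and positions came from GENCODE M21 (GRCm38) by gene identifier, with 32158 of 32285 matched. Members and gene lists were chosen with earlier results of these data known, and the roles were assigned after the values had been seen. Named are members with an unadjusted p under 0.05, a fixed set of well-known members, the 5 most abundant per length in each family, members under 50 counts, and called or lowest-p genes of the lists. The other members were added after their values were seen, so that each is accounted for. Genes with a total of at least 10 counts (20021) were fitted together with the edgeR 4.0.16 quasi-likelihood test in R 4.3.3 with TMM scaling and no covariate. CPM use the TMM-scaled totals, from 26289905 to 38010151 counts before scaling. Benjamini-Hochberg adjustment was over all genes tested, and a call needed an adjusted p under 0.05 and a log2 fold change beyond 0.5. Counting intervals are exact Poisson or binomial intervals at the 95% level and cover counting error only.

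Alternatives were DESeq2 1.42.0, limma 3.58.1 on log2(CPM + 0.5), median-of-ratios scaling, 2 other count filters, a replicate block, no minimum fold and leaving out each library. Lists without OIR-Norm 2 and endothelial markers without Kdr were added after the data had been seen. The fit was tested on simulated counts of 19741 genes for OIR-CIH against OIR-Norm. It called 52 of 68 genes with a simulated log2 change of 0.7, 63 of 66 with 1 and 66 of 66 with 1.5. Each was in the right direction, and 8 of 19541 unchanged genes were called. Changed genes were drawn only from those with a total of at least 300 counts. The test therefore did not cover the 13 members under this total, Mmp12 among them. Changes smaller than 0.7 were not simulated either. Replicates of a group all differed by more than sampling noise. Promoters came from RefSeq (GRCm38.p6).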

Additional observations from a re-analysis of the deposited data

How the results depend on the processing

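The count of members called, 0 by edgeR, was 1 (Mmp12, lower) under DESeq2, under limma, with every gene of at least 1 count and under the replicate block, 0 under median-of-ratios scaling, filterByExpr and no minimum fold, and 0 to 1 when single libraries were left out. The 1 was Mmp12 without OIR-CIH 1 or OIR-Norm 2, and Adamts1 without OIR-Norm 3. For Mmp12 the log2 fold change and adjusted p were -2.30 and 0.000654 under DESeq2, -1.35 and 0.0494 under limma, -2.32 and 0.000431 with every gene of at least 1 count, and -2.35 and 0.0194 under the replicate block. They were -3.09 to -1.97 and 0.0274 to 0.204 when single libraries were left out. The added 0.5 CPM shrinks its fold under limma. Lowering the minimum to 1 count raised the calls over all genes from 63 to 213, and DESeq2 made 135 and the block 84, against 35 to 104 when single libraries were left out. The pathway lists held 2 called genes, 6 under DESeq2, 8 with every gene of at least 1 count and 1 to 4 when single libraries were left out. The members' median of -0.15 ranged from -0.20 to -0.00996 over the fits without 1 library, the last without OIR-Norm 2, and the cause was not tested.

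Of 18 members followed over the settings, 6 reversed direction, and only when a library was left out. The ranges were -0.15 to 0.16 for Mmp9, -0.11 to 0.13 for Mmp15 and -0.0383 to 0.22 for Mmp24. They were -0.33 to 0.0740 for Adamts4, -0.19 to 0.0817 for Adamts10 and -0.13 to 0.0129 for Timp2. Members outside these 18 reversed as well, such as Adamts17 (0.05, and -0.10 without OIR-CIH 3) and Adamts12 (0.07, and -0.11 without OIR-Norm 1). Mmp2, Mmp11, Mmp12, Mmp14, Mmp17, Adamts1, Adamts3, Adamts5 and Adamts9 kept their direction under all 12 settings. Members without overlap between groups, 10 of 37, numbered 12 to 14 without 1 library, against 25.7% to 31.5% of all genes. The replicate numbers did not pair the libraries, as deviations of same-numbered libraries correlated at 0.162, 0.143 and -0.238, so the block is a check only. For members under 50 counts, depth limits what can be seen, and no difference was detectable for Mmp10, Mmp21, Adamts13 and Adamts14.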
